A study of Homo sapiens with 6 samples.

Results

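The 10 genes of cytosolic DNA sensing described here were followed by name through the expression table: STING1, TBK1, IRF3, IFI16, AIM2, TREX1, SAMHD1, ENPP1, PYCARD and NLRX1. These genes, and the lists further below, were chosen with earlier results of these data known. Counts of them beside the shares of all genes are therefore a description. Of these 10 genes, 9 had a row among the 30178 gene IDs of the table and 8 passed the expression filter and were tested. RNA sequencing measured 6 libraries of CAL27, an established human line from an oral carcinoma that the labels call adenosquamous. The lines were stable, were grown in DMEM with 10% serum under the selection drug G418, and expressed proteins fused to GFP. The Q311E line carried MB21D2 with a glutamine replaced by a glutamate, the wild-type line carried unchanged MB21D2, and the vector line carried the empty vector. Each line had 2 libraries, called A and B. Nothing in the labels tells whether A and B were separate cultures, or whether a line was 1 clone. The p-values therefore reflect the variation between these libraries alone, and that variation may be technical. The stated aim was to set the transcriptome of the Q311E form against that of the wild-type form.

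Cytosolic DNA is bound by cGAS, which then makes the messenger cGAMP. cGAMP binds STING on the endoplasmic reticulum; STING moves to the Golgi, recruits the kinase TBK1, and TBK1 phosphorylates the transcription factor IRF3, which enters the nucleus and induces interferons and interferon-stimulated genes. IFI16 and AIM2 are DNA-binding proteins of the PYHIN family, AIM2 builds an inflammasome with the adaptor ASC (the product of PYCARD), and nucleases and hydrolases remove the DNA or the messenger. MB21D2 belongs to the same Mab-21 family as cGAS.

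The promoters of IFI16 and AIM2 are shown because both genes were called below and their windows held a motif that was sought. These neighbours on chromosome 1 were both higher in the Q311E line than in the wild-type line. PYCARD and NLRX1 were also higher there, and their windows held no match. The sequences are RefSeq's 250 bases before the transcription start on GRCh38.p14, read 5′ to 3′ on the gene's strand. Capitals mark a match to the core of the interferon-stimulated response element, GAAANNGAA, on the strand opposite to the one printed. The first comes from the downstream of the 2 RefSeq starts of IFI16 (chr1:159009657-159009906, + strand) and the second from AIM2 (chr1:159076767-159077016, - strand).
IFI16: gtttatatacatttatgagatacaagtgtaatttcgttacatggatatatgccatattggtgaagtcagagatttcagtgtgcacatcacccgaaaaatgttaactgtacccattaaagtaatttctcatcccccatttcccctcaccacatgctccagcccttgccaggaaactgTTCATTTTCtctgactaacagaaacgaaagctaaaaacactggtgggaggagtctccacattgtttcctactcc
AIM2: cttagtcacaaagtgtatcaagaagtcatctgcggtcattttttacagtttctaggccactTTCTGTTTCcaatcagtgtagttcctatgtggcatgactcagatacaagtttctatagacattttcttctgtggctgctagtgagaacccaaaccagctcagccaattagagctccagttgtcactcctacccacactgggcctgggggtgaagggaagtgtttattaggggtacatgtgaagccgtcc
The match lies 74 bases before the start of IFI16 and 189 bases before that of AIM2. RefSeq windows were found for 8 of the 10 genes, 9 windows in all, and these 2 held the core. STING1 and IRF3 had no window, so their promoters were not searched. None of the 9 windows held the gamma-activated site TTCNNNGAA, which reads alike on both strands. Both motifs were searched on both strands, and matches of the 2 can share a GAA. Among 35116 RefSeq windows of 250 bases, 6.9% held GAAANNGAA and 6.6% held TTCNNNGAA. A match describes letters and says nothing of binding.

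MB21D2 followed the labels. It had 32.8 and 21.2 FPKM (reads per unit of gene length and of library total) in Q311E A and B, 104 and 106 in wild type A and B, and 8.31 and 7.15 in vector A and B. The Q311E line therefore differed from the wild-type line in the level of MB21D2 RNA as well as in the form of the protein, and the 2 cannot be told apart here. Library totals, inferred from the FPKM values, lay between 20645410 and 24147306 reads. The SD of the log2 difference between A and B was 0.436 for Q311E, 0.145 for wild type and 0.192 for vector. Counting noise alone would give a mean chi-square of 1 between A and B. The mean over genes was 97.44 for Q311E (median 13.28), 3.03 for wild type (median 0.96) and 17.01 for vector (median 2.33). The fit shares 1 spread among the lines, so over genes it tends to be too small for Q311E and too large for wild type. Of 10 lymphoid markers 4 had a row, and none exceeded 0.142 FPKM. Of 7 myeloid markers 5 had a row, and these summed to between 5.83 and 19.3 FPKM in Q311E, between 2.97 and 3.11 in wild type and between 2.33 and 3.84 in vector. Most of that was CD14, at 18.8 FPKM in Q311E B, and PTPRC, the leukocyte antigen CD45, was at 0 in 5 libraries and 0.00478 FPKM in the other. Fibroblast markers peaked at 1.85 FPKM, and of 4 endothelial markers CDH5 reached 35.2 FPKM while the other 3 stayed at or under 0.317. Of the epithelial and squamous markers, KRT5 had between 405 and 579 FPKM, SOX2 stayed at or under 0.33 FPKM and KRT14 had 0.771 and 0.902 FPKM in Q311E, 2.08 and 2.35 in wild type, and 762 and 697 in vector. The part of these differences between the lines in the results below was not tested.

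Against wild type, 6 of the 8 tested genes were higher in the Q311E line and 0 were lower: PYCARD, AIM2, STING1, IFI16, IRF3 and NLRX1. Their fold changes lay between 0.36 and 1.89 on the log2(FPKM + 1) scale. On this scale the change of a weakly expressed gene is understated. TBK1 and SAMHD1 were not called. A gene was called at an adjusted p under 0.05 in a limma fit of all 3 groups, with p adjusted over 11481 genes; 27.5% of all genes were called in this comparison, 17.5% higher and 10.1% lower. The median fold change of the 8 genes was 0.58, against 0.05 over all genes tested. Against vector, the wild-type line was lower in 4 of the 8 genes (STING1, AIM2, PYCARD and IRF3) and higher in 0, where 12.3% of all genes were called, 3.54% higher and 8.76% lower; the median was -0.45, against -0.05 over all genes. Against vector, the Q311E line differed in 0 of the 8 genes by limma and 0 by limma-voom on recovered reads, where 18.0% of all genes were called, 8.67% higher and 9.28% lower. Of these 8 genes, 2 had an unadjusted p under 0.05, PYCARD at 0.0243 and NLRX1 at 0.0293; the median was 0.13, against 0.00 over all genes. Every pair of comparisons shares a line's libraries, so the 3 sets of values are not independent.

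**Figure D1:**
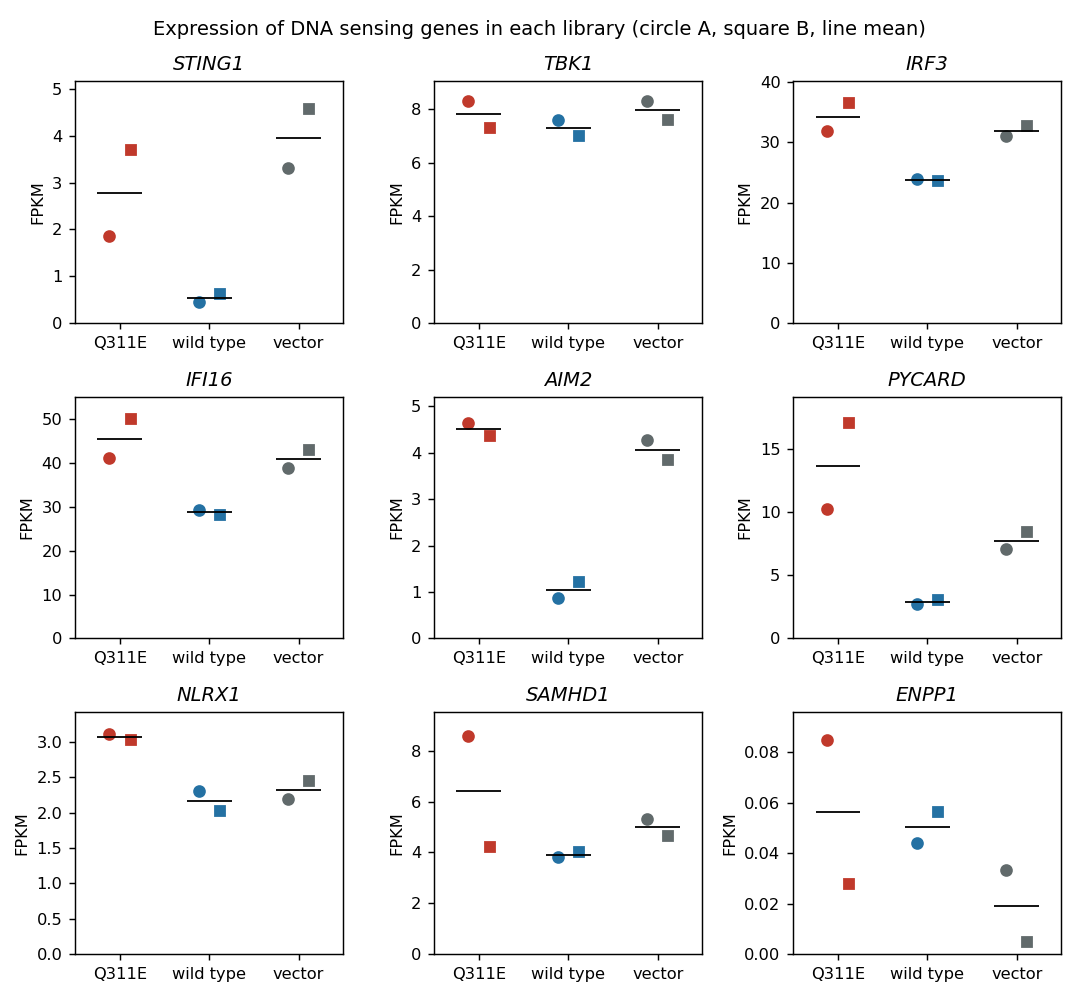
FPKM of the 9 measured genes in each library, with circles for library A, squares for library B and a line at the mean of 2; each panel starts at 0 and has its own scale. STING1, AIM2 and PYCARD sit lowest in both wild-type libraries, TBK1 keeps between 7.02 and 8.32 FPKM everywhere, and ENPP1 stays under 0.1 FPKM.

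These calls rested on few libraries. The share of all genes called also moved when a library was left out, so the changes that follow are not particular to the 8 genes. With either wild-type library left out, no gene was called for Q311E against wild type. Without vector A or vector B, AIM2 and PYCARD alone kept their calls there. For wild type against vector, leaving out either wild-type or either vector library left none of the 8 called. A fit without Q311E A or Q311E B takes its spread from the wild-type and vector pairs alone. The SD of the log2 difference between A and B was smaller in those pairs (0.145 and 0.192) than in the Q311E pair (0.436). Calls gained in such fits are therefore not read as results. For Q311E against wild type, the low ends of the ranges of adjusted p given below come from these fits.

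STING1 (ENSG00000184584, named TMEM173 in GENCODE 29; GRCh38 chr5:139475534-139482935, - strand) encodes the adaptor that binds cGAMP. It had 1.86 FPKM (190 reads) in Q311E A and 3.70 (384 reads) in Q311E B, 0.457 (50 reads) and 0.626 (64 reads) in wild type A and B, and 3.32 (385 reads) and 4.58 (454 reads) in vector A and B. Both wild-type libraries were below all others, the Q311E and vector ranges overlapped, and Q311E A stood lower than Q311E B. The mean was 2.78 ± 1.30 FPKM in Q311E, 0.541 ± 0.119 in wild type and 3.95 ± 0.891 in vector (SD, n = 2 each). The ratio of means was 5.14 for Q311E over wild type and 0.137 for wild type over vector. On the log2(FPKM + 1) scale the fold change was 1.25 ± 0.26 (SE, limma adjusted p = 0.0257) for Q311E against wild type and -1.67 ± 0.26 (adjusted p = 0.0211) for wild type against vector. With a pseudocount of 0.1 the value was 2.103 for Q311E against wild type and -2.655 for wild type against vector, and by voom on recovered reads 2.30 and -2.85. Between Q311E and vector it was -0.42 ± 0.26 (95% interval -1.08 to 0.24, adjusted p = 0.304). The adjusted p for Q311E against wild type was 0.154 with wild type A left out, 0.143 with wild type B left out, 0.063 without vector A, 0.0631 without vector B, 0.0823 with no filter and 0.0636 in a fit of these 2 groups alone, within 0.000945 to 0.154 over all alternatives. For the wild-type line against vector it was 0.176 with wild type A left out, 0.171 with wild type B left out, 0.112 without vector A, 0.178 without vector B and 0.0781 with no filter, within 0.000297 to 0.178. Between Q311E and vector the log2 fold change was -0.78 without Q311E B and -0.063 without Q311E A.

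The DNA sensors did not all move one way. IFI16 (ENSG00000163565, chr1:158999968-159055155, + strand), a nuclear and cytosolic PYHIN DNA sensor, was the most abundant of the 9 measured genes per length. It had 41.0 and 49.9 FPKM in Q311E A and B, 29.2 and 28.2 in wild type A and B, and 38.8 and 43.0 in vector A and B. Q311E and vector overlapped, and both wild-type libraries lay below them. The fold change was 0.64 ± 0.12 (adjusted p = 0.0184) for Q311E against wild type, -0.49 ± 0.12 (adjusted p = 0.0525) for wild type against vector, and 0.15 ± 0.12 (95% interval -0.15 to 0.44, adjusted p = 0.411) for Q311E against vector. The value against wild type lost its call with wild type A (0.131), wild type B (0.148), vector A (0.054) or vector B (0.054) left out, with no filter (0.0539) and with the 2 groups alone (0.054), within 0.000737 to 0.148. The wild type against vector value had an adjusted p of 0.00288 without Q311E A and 0.00287 without Q311E B, and it also passed by voom (0.0473) and with 4 other settings, within 0.00127 to 0.308. For Q311E against vector the log2 fold change was 0.284 without Q311E A and 0.008 without Q311E B.

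AIM2 (ENSG00000163568, chr1:159062484-159147096, - strand), the cytosolic PYHIN sensor that nucleates an inflammasome, had 4.64 FPKM (185 reads) and 4.37 (177 reads) in Q311E A and B, 0.866 (37 reads) and 1.23 (49 reads) in wild type A and B, and 4.29 (194 reads) and 3.85 (149 reads) in vector A and B. Both wild-type libraries were well below the rest, and the Q311E values lay above both vector values. The mean was 4.50 ± 0.192 FPKM in Q311E, 1.05 ± 0.255 in wild type and 4.07 ± 0.308 in vector (SD, n = 2 each), a ratio of 4.31 for Q311E over wild type and 0.257 for wild type over vector. The log2 fold change was 1.43 ± 0.12 (adjusted p = 0.00412) for Q311E against wild type, -1.31 ± 0.12 (adjusted p = 0.0084) for wild type against vector and 0.12 ± 0.12 (95% interval -0.19 to 0.43, adjusted p = 0.521) for Q311E against vector. By voom on recovered reads wild type against vector was -1.98. The adjusted p for Q311E against wild type was 0.0642 with wild type A left out and 0.0513 with wild type B left out, within 0.000693 to 0.0642. The wild type against vector value was 0.118 with wild type A left out, 0.111 with wild type B left out, 0.0927 without vector A and 0.116 without vector B, within 0.000309 to 0.118.

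CGAS, which is no member of the 10, had 20.8 and 14.8 FPKM in Q311E, 32.2 and 27.4 in wild type, and 17.9 and 16.2 in vector. Its highest libraries were the wild-type ones, where STING1 was lowest. The enzyme's log2 fold change was -0.73 ± 0.18 (adjusted p = 0.0352) for Q311E against wild type and 0.77 ± 0.18 (adjusted p = 0.0482) for wild type against vector. Of 24 other nucleic acid sensors 19 were tested; for Q311E against wild type 0 rose and 5 fell, with a median of -0.25. They were POLR3F, a subunit of RNA polymerase III (-0.84 ± 0.11, adjusted p = 0.00882), the chromatin proteins HMGB1 (-0.76 ± 0.13, adjusted p = 0.0157) and HMGB2, the helicase DHX9, and CGAS. In wild type against vector CGAS rose and 0 fell (median 0.13), and for Q311E against vector HMGB1 and POLR3F fell and 0 rose (median -0.17). The counts of these sensors changed when a library was left out, as did the share of all genes called. Those changes are therefore not particular to the sensors.

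TBK1 (ENSG00000183735, chr12:64451880-64502108, + strand), the kinase that STING recruits, had 8.321 and 7.305 FPKM in Q311E A and B, 7.599 and 7.017 in wild type A and B, and 8.312 and 7.605 in vector A and B. The Q311E range overlapped that of both other lines, and both wild-type values lay below both vector values, by as little as 7.599 against 7.605. The fold change was 0.08 ± 0.10 (95% interval -0.16 to 0.33, adjusted p = 0.542) for Q311E against wild type, -0.11 ± 0.10 (95% interval -0.36 to 0.14, adjusted p = 0.485) for wild type against vector, and -0.02 ± 0.10 (95% interval -0.27 to 0.22, adjusted p = 0.877) for Q311E against vector. The direction against wild type turned under quantile normalization and with the length trend removed, both at -0.01 or closer to 0. Of its exon bases, 14.7% overlap AC135279.3 on the other strand, and the counting strand is not stated in these sources.

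IRF3 (ENSG00000126456, chr19:49659569-49665875, - strand), the transcription factor that TBK1 phosphorylates, had 31.96 and 36.55 FPKM in Q311E A and B, 24.0 and 23.5 in wild type A and B, and 31.1 and 32.7 in vector A and B. Both wild-type libraries were lowest, and Q311E and vector overlapped. The fold change was 0.51 ± 0.09 (adjusted p = 0.0176) for Q311E against wild type, -0.41 ± 0.09 (adjusted p = 0.0442) for wild type against vector, and 0.10 ± 0.09 (95% interval -0.13 to 0.32, adjusted p = 0.482) for Q311E against vector. Between Q311E and wild type the adjusted p was 0.136 with wild type A left out, 0.151 with wild type B left out, 0.0576 without vector A, 0.0578 without vector B and 0.0577 with the 2 groups alone, within 0.00076 to 0.151. The wild type against vector call also ended under 3 scalings (0.0665 to 0.0851), with the length trend removed (0.0753) and with no filter (0.1); it was 0.266 with wild type A left out, 0.297 with wild type B left out, 0.187 without vector A and 0.283 without vector B, within 0.00111 to 0.297. Between Q311E and vector the log2 fold change was 0.191 without Q311E A and 0.003 without Q311E B. BCL2L12 shares 19.3% of the exon bases of IRF3 on the opposite strand.

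**Figure D2:**
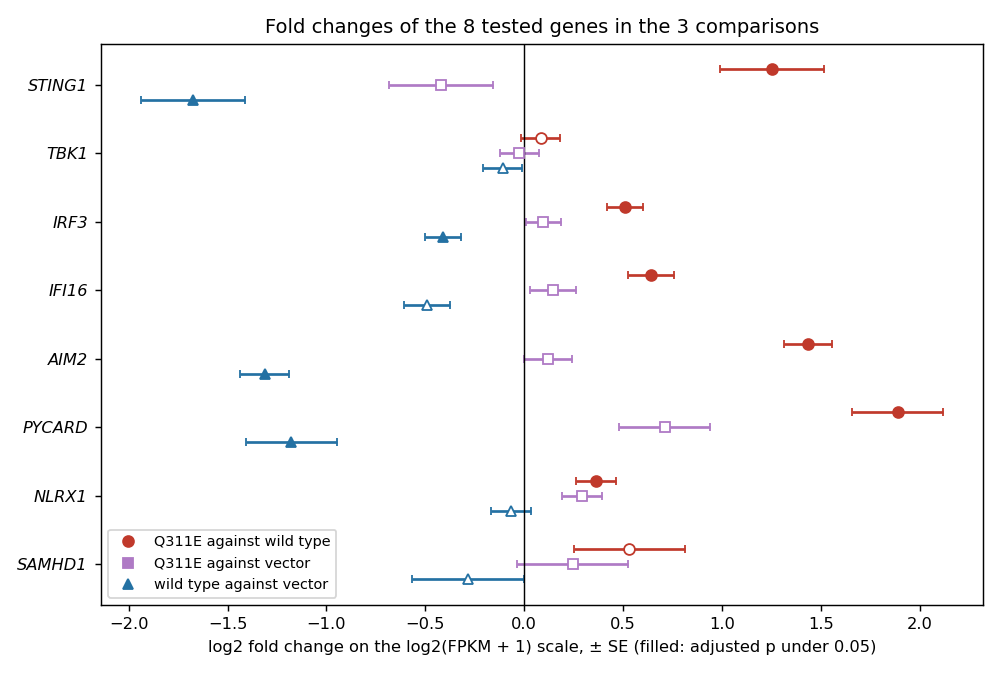
Log2 fold changes on the log2(FPKM + 1) scale with their SE for the 8 tested genes, with circles for Q311E against wild type, squares for Q311E against vector and triangles for wild type against vector; filled marks have an adjusted p under 0.05. The 6 filled circles lie right of 0 and the 4 filled triangles left of it, while every square is open.

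PYCARD (ENSG00000103490, chr16:31201485-31203450, - strand) encodes ASC, the adaptor that joins AIM2 and other sensors to caspase-1. It had 10.3 FPKM (363 reads) and 17.1 (612 reads) in Q311E A and B, 2.69 (102 reads) and 3.02 (107 reads) in wild type A and B, and 7.08 (284 reads) and 8.40 (288 reads) in vector A and B. Here no groups overlapped, with Q311E above vector and vector above wild type, and Q311E B well above Q311E A. The mean was 13.7 ± 4.79 FPKM in Q311E, 2.86 ± 0.232 in wild type and 7.74 ± 0.932 in vector (SD, n = 2 each). The log2 fold change was 1.89 ± 0.23 (adjusted p = 0.00816) for Q311E against wild type, -1.18 ± 0.23 (adjusted p = 0.0348) for wild type against vector, and 0.71 ± 0.23 (95% interval 0.13 to 1.29, adjusted p = 0.0908) for Q311E against vector. In the last comparison the adjusted p was 0.00172 without Q311E A, within 0.00172 to 0.354. For Q311E against wild type it was 0.0922 with wild type A left out and 0.0904 with wild type B left out, within 0.000191 to 0.0922. The wild type against vector call ended under quantile normalization (0.0599), with no filter (0.111), by voom on recovered reads (0.0552) and without wild type A (0.225), wild type B (0.202), vector A (0.156) or vector B (0.239), within 0.000354 to 0.239. PYCARD-AS1 overlaps 59.7% of its exon bases on the opposite strand, so reads of the 2 genes may be mixed.

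NLRX1 (ENSG00000160703, chr11:119166568-119184016, + strand), a mitochondrial NLR protein reported to hold STING back from TBK1, had 3.12 and 3.02 FPKM in Q311E A and B, 2.31 and 2.03 in wild type A and B, and 2.19 and 2.45 in vector A and B. Q311E was above both other lines, which overlapped. The fold change was 0.36 ± 0.10 (adjusted p = 0.0483) for Q311E against wild type, 0.29 ± 0.10 (95% interval 0.04 to 0.55, adjusted p = 0.101) for Q311E against vector, and -0.07 ± 0.10 (95% interval -0.32 to 0.18, adjusted p = 0.664) for wild type against vector. It had the highest adjusted p of the 6 calls, and held in 4 of 16 alternatives, with the adjusted p at 0.175 with wild type A left out, 0.275 with wild type B left out and 0.103 without vector A or vector B, and between 0.0585 and 0.263 under the 3 scalings, within 0.0362 to 0.275.

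Among the 10 genes, SAMHD1 was the only tested one for an enzyme that removes DNA, nucleotides or cGAMP, and it was not called. SAMHD1 (ENSG00000101347, chr20:36889773-36951901, - strand), a dNTP hydrolase that limits viral DNA synthesis, had 8.59 FPKM in Q311E A and 4.23 in Q311E B, 3.812 and 3.998 in wild type A and B, and 5.34 and 4.64 in vector A and B. Q311E A stood alone at the top, and Q311E B lay below both vector libraries. The fold change was 0.53 ± 0.28 (95% interval -0.17 to 1.23, adjusted p = 0.201) for Q311E against wild type, 0.24 ± 0.28 (95% interval -0.46 to 0.95, adjusted p = 0.571) for Q311E against vector, and -0.29 ± 0.28 (95% interval -0.99 to 0.42, adjusted p = 0.519) for wild type against vector. Its values turn on which Q311E library is used. Without Q311E B the log2 fold change was 0.97 against wild type and 0.68 against vector, and without Q311E A it was 0.09 and -0.19. Wild type against vector had an adjusted p of 0.0369 without Q311E A, 0.0339 without Q311E B and 0.0358 with the 2 groups alone, within 0.0339 to 0.785. TLDC2 overlaps 10.3% of its exon bases on the other strand.

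ENPP1 (ENSG00000197594, chr6:131808016-131895155, + strand), the ectoenzyme that hydrolyses extracellular cGAMP, averaged 0.0419 FPKM and fell under the filter. It had 18 and 6 reads in Q311E, 10 and 12 in wild type, and 8 and 1 in vector, and no difference between the lines is drawn from these few reads. TREX1 (ENSG00000213689, chr3:48465811-48467645, + strand), the main cytosolic DNA exonuclease, was not analysed here. All of its annotated exon bases (100%) lie within exons of ATRIP on the same strand in GENCODE 29.

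By level per length, averaged over the 6 libraries, the order was IFI16 (38.3 FPKM), IRF3 (29.97), PYCARD (8.09), TBK1 (7.69), SAMHD1 (5.10), AIM2 (3.21), NLRX1 (2.52), STING1 (2.42) and ENPP1 (0.0419). In wild type the order changed below TBK1 (7.31 FPKM): SAMHD1 (3.90), PYCARD (2.86), NLRX1 (2.17), AIM2 (1.05) and STING1 (0.541). In Q311E, PYCARD (13.7 FPKM) was above TBK1 (7.81), and STING1 (2.78) was below NLRX1 (3.07), a gap smaller than the SD of STING1. The summed level of the 9 genes was 110 and 126 FPKM in Q311E, 71.0 and 69.7 in wild type, and 100 and 107 in vector. In such bulk libraries, fewer cells with a transcript and less of it per cell cannot be told apart.

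The other genes of the pathway were followed in lists by role, with the fold changes and calls of the same fit. The shares of all genes called given above hold for them in the fit with all libraries. The counts of called genes below changed when a library was left out, and the share of all genes called moved as well. Such changes are therefore not particular to the listed genes. With either wild-type library left out, no gene was called for Q311E against wild type, and with any wild-type or vector library left out no listed gene was called for wild type against vector. For Q311E against vector no listed gene was called with either vector library left out, and CXCL10 alone with either wild-type library left out.

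Around STING, the genes of its traffic and turnover were mixed. Of 29 listed 27 were tested; for Q311E against wild type 7 rose and 1 fell, with a median of 0.15. RNF5, a ubiquitin ligase of the endoplasmic reticulum that targets STING for degradation, rose by 0.90 ± 0.15 (adjusted p = 0.0161), and ULK1, an autophagy kinase that phosphorylates STING, by 0.93 ± 0.17 (adjusted p = 0.0184). NPC1, the lysosomal cholesterol transporter, rose by 0.47 ± 0.09 (adjusted p = 0.0193). EIF2AK3, SQSTM1 and USP18 were among the other genes that rose, and RNF26 fell. In the wild-type line against vector, SURF4, which returns STING from the Golgi to the endoplasmic reticulum, rose by 0.44 ± 0.07 (adjusted p = 0.0231), and RNF5 fell by 0.72 ± 0.15 (adjusted p = 0.0411). RNF5 had 60.6 and 80.6 FPKM in Q311E, 37.3 and 36.6 in wild type, and 57.5 and 66.2 in vector, so the wild-type libraries were lowest. In the Q311E line against vector, SURF4, TRIM32 and USP20 rose and 0 fell. These counts moved with the libraries, as did the share of all genes called.

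Of 20 kinases, adaptors and transcription factors beside TBK1 and IRF3, 19 were tested. For Q311E against wild type 6 rose and 0 fell, with a median of 0.18. OPTN, an autophagy receptor that binds TBK1, had 19.0 and 16.9 FPKM in Q311E, 7.77 and 7.33 in wild type, and 10.2 and 10.4 in vector, with no overlap between lines. It rose by 1.15 ± 0.09 (adjusted p = 0.00334) against wild type and by 0.74 ± 0.09 (adjusted p = 0.00878) against vector. STAT6, a factor that STING can recruit, rose by 0.90 ± 0.12 (adjusted p = 0.00909) and the interferon regulatory factor IRF5 by 0.74 ± 0.12 (adjusted p = 0.0148) against wild type. IRF7, TANK and TRAF6 rose too. In the wild-type line against vector, OPTN, STAT6 and IRF5 fell and TRAF2, a signalling adaptor, rose (median 0.02). In the Q311E line against vector, OPTN, TRAF6 and IRF7 rose and 0 fell (median 0.21). The counts of this list also moved when a library was left out.

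Of 12 tested nucleases and related enzymes, 4 rose and 0 fell for Q311E against wild type (median 0.16), and 0 rose and 4 fell for wild type against vector (median -0.14). DNASE2, the lysosomal DNase, had 20.5 and 25.0 FPKM in Q311E, 9.78 and 9.87 in wild type, and 15.5 and 16.7 in vector, and no lines overlapped. It rose by 1.13 ± 0.11 (adjusted p = 0.00523) against wild type and by 0.47 ± 0.11 (adjusted p = 0.0422) against vector, and fell by 0.66 ± 0.11 (adjusted p = 0.0236) for wild type against vector. DNASE1L1 and RNASEH2C, a subunit of RNase H2, rose for Q311E against wild type and fell for wild type against vector; PLD3, a lysosomal exonuclease, rose in the Q311E line against wild type, and RNASET2 fell in the wild-type line against vector. Between Q311E and vector DNASE2 was the single call. Of the 8 genes of Aicardi-Goutières syndrome, an inherited interferonopathy, 6 were tested, and RNASEH2C was the gene called in both of those comparisons. The adjusted p of RNASEH2C was 0.0173 for Q311E against wild type and 0.021 for wild type against vector, and for Q311E against vector 0 of the 6 were called by limma and 1 (lower) by voom, and 2 had an unadjusted p under 0.05. For the nucleases and for these 6 genes, the counts moved when a library was left out.

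Of 8 tested genes of cGAMP transport and breakdown, 1 rose and 1 fell for Q311E against wild type (median -0.02). SLC19A1, the folate carrier that imports cGAMP, had 2.87 and 2.14 FPKM in Q311E, 5.69 and 5.58 in wild type, and 4.68 and 3.98 in vector, lowest in both Q311E libraries. It fell by 0.93 ± 0.13 (adjusted p = 0.0113) against wild type and by 0.61 ± 0.13 (adjusted p = 0.0352) against vector. SMPDL3A, a phosphodiesterase that degrades cGAMP, rose by 0.68 ± 0.15 (adjusted p = 0.0288) against wild type. Against vector, the thiamine carrier SLC19A2 and the channel subunit LRRC8B fell as well in the Q311E line, and 0 rose. Between wild type and vector limma and voom called 0 of the 8, while 3 had an unadjusted p under 0.05. Here too the counts moved when a library was left out.

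**Figure D3:**
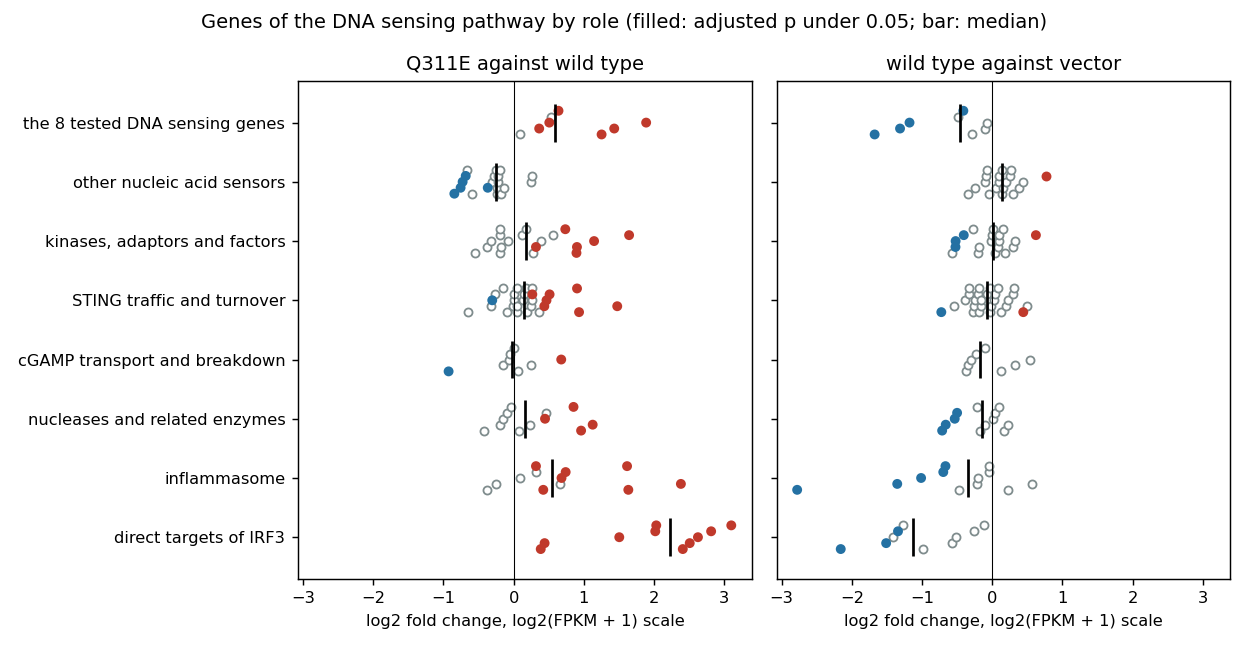
Log2 fold changes on the log2(FPKM + 1) scale of each tested gene, by role, for Q311E against wild type (left) and wild type against vector (right); filled points have an adjusted p under 0.05 and the bar is the median. For Q311E against wild type the median is 2.22 for direct IRF3 targets and 0.54 for inflammasome genes, and -0.25 for the other sensors.

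Of 20 listed inflammasome genes, which include sensors other than AIM2, 12 were tested. For Q311E against wild type 7 rose and 0 fell, with a median of 0.54, and for wild type against vector 0 rose and 5 fell, with a median of -0.34. CASP1, which encodes caspase-1, had 16.6 and 18.6 FPKM in Q311E, 5.22 and 4.89 in wild type, and 13.6 and 15.4 in vector. IL1B, the cytokine that caspase-1 processes, had 46.2 and 71.7 FPKM in Q311E, 10.5 and 10.0 in wild type, and 70.7 and 81.8 in vector. Both genes were lowest in the wild-type line, as AIM2 and PYCARD were. CASP1 rose by 1.62 ± 0.10 (adjusted p = 0.00215) for Q311E against wild type and fell by 1.35 ± 0.10 (adjusted p = 0.00604) for wild type against vector. IL1B rose by 2.38 ± 0.21 (adjusted p = 0.00427) for Q311E against wild type and fell by 2.78 ± 0.21 (adjusted p = 0.00604) for wild type against vector. CARD16, a CARD-only protein related to caspase-1 whose reads may be shared with CASP1, rose by 1.63 ± 0.16 (adjusted p = 0.00534) for Q311E against wild type. GSDME, CASP4, GSDMD and CASP8 rose as well, and for wild type against vector GSDME, GSDMD and CARD16 fell. In Q311E against vector CASP4 rose and the pore protein GSDMD fell (median 0.14). NLRP3, the sensor of another inflammasome, stayed at or under 0.207 FPKM in all 6 libraries. The counts of inflammasome genes called moved when a library was left out.

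Downstream of IRF3, 15 direct targets were listed, 14 had a row and 10 passed the filter and were tested. All 10 rose for Q311E against wild type, with a median of 2.22. RSAD2 passed the filter through Q311E, at 9.9 and 2.69 FPKM, and stayed at or under 0.859 in the other lines. Of the targets under the filter, CCL5 and IFNB1 had their highest value in wild type, and IFNL1 and IFNL3 in Q311E. CCL5 had 0.94 and 0.309 FPKM in Q311E and 1.02 and 1.44 in wild type. CXCL10, a chemokine, had 14.5 and 9.72 FPKM in Q311E, 0.485 and 0.519 in wild type, and 3.03 and 2.60 in vector. CXCL11, a chemokine of the same receptor, had 9.70 and 6.50 FPKM in Q311E, 0.253 and 0.295 in wild type, and 2.50 and 2.77 in vector. In both, no lines overlapped. CXCL10 rose by 3.10 ± 0.19 (adjusted p = 0.00215) and CXCL11 by 2.81 ± 0.18 (adjusted p = 0.0023) for Q311E against wild type, and both rose for Q311E against vector, by 1.76 ± 0.19 (adjusted p = 0.00747) and 1.30 ± 0.18 (adjusted p = 0.0128). OASL, an antiviral protein, rose by 2.63 ± 0.30 (adjusted p = 0.00741) for Q311E against wild type. In wild type against vector CXCL11, CXCL10 and OASL fell and 0 rose, with a median of -1.13, and for Q311E against vector the median was 1.01. The targets summed to 569 FPKM in Q311E A and 256 in Q311E B, 118 and 119 in wild type, and 192 and 198 in vector. Q311E A was highest here, while STING1 was lower in Q311E A than in Q311E B. IFNB1, the interferon-beta gene, stayed at or under 0.168 FPKM and IFNL1 at or under 0.546. The counts of targets called moved when a library was left out.

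**Figure D4:**
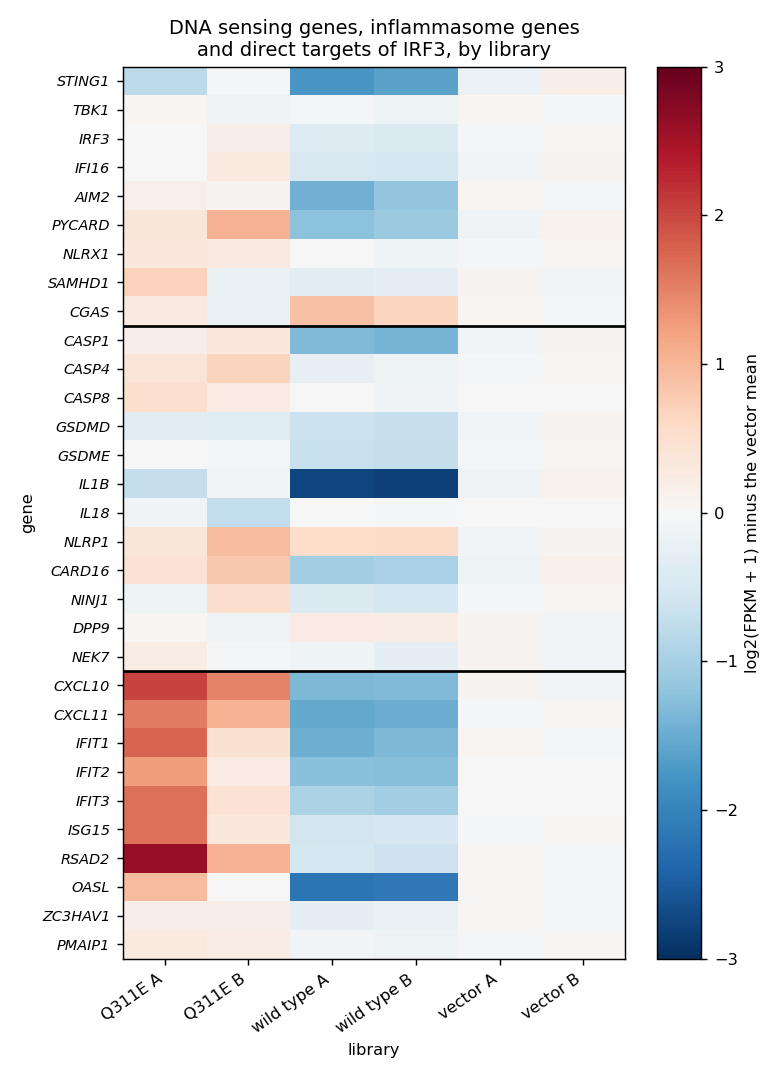
Log2(FPKM + 1) of each library minus the mean of the vector libraries, for 8 of the DNA sensing genes with CGAS (top), inflammasome genes (middle) and direct IRF3 targets (bottom). STING1, AIM2, PYCARD, CASP1 and IL1B are low in both wild-type columns, CGAS is high there, and the IRF3 targets are higher in Q311E A than in Q311E B.

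Over the 6 libraries, the genes whose pattern lay nearest to that of STING1 were SREBF1, PRDX5 and ANKUB1. Their root mean square distance from STING1 in centred log2(FPKM + 1) was 0.121, 0.137 and 0.145, among 11463 genes compared. SREBF1, the sterol and lipid synthesis factor SREBP-1, had 36.9 and 49.0 FPKM in Q311E, 15.8 and 15.6 in wild type, and 49.4 and 65.3 in vector. PRDX5, a peroxiredoxin, had 186 and 401 FPKM in Q311E, 117 and 118 in wild type, and 306 and 378 in vector. Like STING1, both were lower in Q311E A than in Q311E B and lowest in the wild-type libraries. By the same measure CASP1 ranked 103 at 0.336, AIM2 124 at 0.351, PYCARD 460 at 0.466 and IL1B 941 at 0.533. The distance depends on the size of the changes as well as on their shape, and on this scale the changes of weakly expressed genes such as STING1 are understated. A gene with a like shape and larger changes therefore ranks lower. The points share 6 libraries and 3 lines, and the measure is a description.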

How the data were processed

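RNA sequencing of 6 CAL27 libraries gave 1 deposited table of FPKM values for 30178 human Ensembl gene IDs, per the file headers. The authors scaled reads by gene length and library total; the sources used here name no aligner, counter or annotation, and do not say whether counting used strand. The submitters' processing notes list CASAVA, mm8 and mm9; the last 2 are mouse builds with no stated role, although the IDs are human. RNA extraction used QIAGEN material and libraries the standard Illumina protocol, per the labels' protocols.

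Symbols matched 29993 IDs, and positions and exon lengths came from GENCODE 29 on GRCh38. Whole reads, within 0.001, were recovered for 30147 genes (99.9%), 22361 of them at the GENCODE length and the rest at a fitted length, among them STING1, TBK1, AIM2 and PYCARD. Library totals, between 20645410 and 24147306 reads, were inferred from the steps of the FPKM values. The recovered reads summed to slightly more in every library, for example 21319569 against 21279535 in Q311E A.

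limma 3.58.1 in R 4.3.3 tested log2(FPKM + 1) in 1 fit of 3 groups, with the variance prior following a trend and 3 degrees of freedom left for the residuals. The 11481 genes whose mean FPKM reached 1 entered. Every adjusted p is limma's, two-sided and Benjamini-Hochberg adjusted over these genes, with 0.05 as the threshold. The 17 alternatives include voom on recovered reads; removal of a trend with gene length was chosen after seeing the data. The fit was also run on simulated data in which all libraries of a gene had the same spread. The real lines differed in spread, so that run does not show how the fit behaves on them.

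The 10 genes and the 13 other lists were chosen with earlier results of these data known. From a list, up to 3 called genes with the smallest adjusted p per comparison are given with values, and further called genes by name, save 1 gene that is not reported here; RNF5's, OPTN's, DNASE2's and SLC19A1's FPKM were singled out after values were seen. The genes nearest to STING1 were taken by distance. Python 3.11.15, numpy 2.4.6, pandas 2.3.3 and matplotlib 3.10.9 did the rest.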

Additional observations from a re-analysis of the deposited data

How the results depend on the processing

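Of 399 fold changes of the 8 genes under 17 alternatives, 317 kept their direction and side of the threshold, 59 lost a call, 17 gained one and 6 turned. For Q311E against wild type, 3162 genes were called, against 1608 with no filter, 973 with those 2 groups alone, 2001 with library weights by group and 0 to 6961 leaving out a library; 6 of the 8 genes became 3 with no filter, 3 of 5 tested at a mean FPKM of at least 5, 2 with the groups alone and 0 to 7 leaving out a library. For Q311E against vector, 2061 genes became 1210, 262, 868 and 3 to 5683 in the same order, and 0 of the 8 became 0 to 3 leaving out a library. For wild type against vector, 1412 genes became 393, 5273, 5508 and 7 to 5262, and 4 of the 8 became 2 under quantile normalization, 1 with no filter, 6 with the groups alone and 0 to 6 leaving out a library. A lone library left in a group is assumed to vary like the others. The share of higher calls for Q311E against wild type, 63.4%, was 51.6% under median scaling, 44.7% under quantile normalization, 52.1% with the stricter filter and 41.8% with the length trend removed; for wild type against vector, 28.8% became 42.3%, 43.9% and 48.1% under median scaling, quantile normalization and removal of the length trend, and for Q311E against vector 48.3% became 58.2% under TPM scaling. TBK1 turned to -0.012 (quantile) and -0.003 (length trend) for Q311E against wild type, and ranged from -0.108 to 0.058 leaving out a library for Q311E against vector; SAMHD1 in that comparison ranged from -0.194 to 0.683, and NLRX1 for wild type against vector was 0.044 under quantile normalization. The cause of these changes was not tested.

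The B minus A differences correlated across genes at -0.01 (Q311E with wild type), 0.39 (Q311E with vector) and -0.03 (wild type with vector). The Q311E and vector lines thus shared part of the shift from A to B, and the wild-type line did not. The labels do not say whether the letters pair the samples. With the replicate block, 3264, 1942 and 1299 genes were called for Q311E against wild type, Q311E against vector and wild type against vector, and of the 8 genes 5, 1 and 3; the 1 was PYCARD (adjusted p = 0.0461), and NLRX1 (0.068) and IRF3 (0.0517) were no longer called, for Q311E against wild type and wild type against vector in that order. In promoter windows that reach 50 bases past the start the same 2 held GAAANNGAA (8.1% of all windows) and 0 held TTCNNNGAA (7.7%). Depth limits ENPP1 (1 to 18 reads) and STING1 and AIM2 in wild type (37 to 64 reads).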
